A study of Homo sapiens with 8 samples.

Results

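The genes described here are 36 genes of glucose breakdown: the carriers and enzymes that take glucose to pyruvate and lactate, the enzymes that decide whether pyruvate enters mitochondria, the pentose phosphate branch, a gluconeogenic bisphosphatase, and BNIP3, a mitophagy gene that responds to hypoxia alongside many of them. They were chosen by name as a pathway, with earlier results of these data known. Each symbol was matched to 1 Ensembl identifier in the count table. All 36 were found among its 78899 rows, of which 39751 held at least 1 count, and all 36 were among the 16249 genes abundant enough to test.

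The data were bulk RNA-seq of microglia, the resident macrophages of the brain, grown from H1, an established human embryonic stem cell line. The labels call the cells iPSC-derived in the title and give H1 and human embryonic stem cells as line and cell type. In the 4 mono-culture libraries the microglia grew alone and received M-CSF at 10 ng/mL and IL-34 at 100 ng/mL, both ligands of the CSF1 receptor, with each of the 3 weekly additions. In the 4 tri-culture libraries they grew with other cells, which the labels do not name, and no cytokine was added. Effects of the partner cells and of leaving the cytokines out cannot be told apart in this design. All cultures were collected 2 weeks after the microglia were plated, and the microglia were separated by sorting on GFP straight into lysis reagent. Both groups came from the same line and from 4 batches, with 1 library of each group per batch, so the spread described below is between batches of 1 line and not between donors.

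Glycolysis splits glucose, once phosphorylated by a hexokinase, into pyruvate through a chain of cytosolic enzymes, most of them with several isozymes encoded by separate genes. Pyruvate is then either reduced to lactate and exported, or oxidised by the mitochondrial pyruvate dehydrogenase complex, which is switched off when pyruvate dehydrogenase kinases phosphorylate it. A side branch, the pentose phosphate pathway, yields NADPH and ribose phosphate. Macrophages and microglia are known to raise glycolysis when activated and to hold many of these genes under the hypoxia-inducible factors.

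Library depth was 17037481 to 33363972 counts in mono-culture and 17602010 to 24491765 in tri-culture (exact 2-sided permutation test of the means, p = 0.4286). Mitochondrial genes took 4.84 to 8.44% of counts in mono-culture and 5.30 to 6.13% in tri-culture (exact permutation p = 0.7143). Levels are given as CPM, the gene's counts scaled by the library's total counts, for 1 gene across libraries, and as TPM, the abundance measure that also corrects for gene length, where genes are set beside each other. A gene is called higher or lower in tri-culture at a Benjamini-Hochberg adjusted p under 0.05 over all 16249 genes in edgeR's quasi-likelihood test, whose fold changes use TMM-normalised library sizes and so can differ a little from the ratio of CPM means. The defining microglial genes were present in both groups: PTPRC was at 598.9 ± 51.6 CPM in mono-culture and 650.0 ± 31.8 in tri-culture (SD, n = 4 each, as for every value after ± below), SPI1 at 467 ± 32.6 and 502 ± 48.1, and AIF1 at 347 ± 47.4 and 424 ± 118, and none of the 3 was called. CSF1R, at 1342 ± 98.9 and 1896 ± 593 CPM, and C1QA, at 185 ± 46.9 and 239 ± 68.3 CPM, were not called either. Of all 14 microglial and macrophage markers 5 were called higher (CX3CR1, P2RY12, C1QB, C1QC and TREM2) and 1 lower (ITGAM), and these are named after their values were seen. CX3CR1 had the highest log2 fold change of the 14, 2.79, and ITGAM had a mean of 167 ± 34.7 CPM in mono-culture against 64.5 ± 37.6 in tri-culture (SD, n = 4 each).

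More of these genes fell in tri-culture than rose. Of the 36 genes 12 fell and 2 rose, and 22 did not pass; of all tested genes 26.9% were called, 13.0% lower and 13.9% higher. The median log2 fold change of the 36 was -0.28, against 0.02 for all tested genes, and 28 of the 36 (77.8%) were below 0, against 47.9% of all tested genes. The 12 that fell were the carrier SLC2A6, the hexokinases HK1 and HK3, GPI, PFKP, PFKFB4, ENO1, PKM, PDHA1, FBP1, PGD and BNIP3. The 2 that rose were the glucose carrier SLC2A1 and the pyruvate dehydrogenase kinase PDK4. Each of the 14 had the same direction in all 4 batches. The 8 libraries' CPM ranges did not overlap for 15 genes, 12 with tri-culture lower and 3 with it higher; over all tested genes the ranges did not overlap for 30.2%, and for 10.8% with tri-culture lower. Together the 36 genes took 0.757 to 0.792% of counts in the mono-culture libraries and 0.598 to 0.652% in the tri-culture libraries. Much of that difference lay in ENO1 and PKM, the members with the most counts. Their means were 1560 and 1438 CPM in mono-culture and 980 and 975 CPM in tri-culture. By TPM, which also corrects for gene length, the 36 took 0.465 to 0.505% in mono-culture and 0.403 to 0.434% in tri-culture. In bulk RNA, fewer cells of a type and less RNA per cell cannot be told apart. When library totals alone set the scale, 9 members fell and 2 rose, and 63.0% of all calls were higher, against 51.7% with TMM.

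Genes of other cell types moved with the groups. Of 17 astrocyte markers 13 were called higher and 1 (ALDOC, itself a glycolytic aldolase) lower, and their summed level was 747 to 946 CPM in mono-culture and 1442 to 1545 CPM in tri-culture. AQP4, ALDH1L1 and PTPRZ1 had no count in any mono-culture library, and GFAP stood at 0.282 ± 0.138 CPM there and at 175 ± 90.0 CPM in tri-culture (SD, n = 4 each). SLC1A3, at 105 ± 24.5 and 84.7 ± 14.1 CPM, was not called. The mono-culture sum thus came almost wholly from markers other than AQP4, ALDH1L1, PTPRZ1 and GFAP, with SLC1A3 among them. Of 10 tested dendritic cell markers 6 were higher and 1 lower, with sums of 76.6 to 97.0 and 366 to 492 CPM and FLT3 at 0 in mono-culture. Of 6 tested monocyte markers 5 were higher and 1 lower, with sums of 177 to 203 and 241 to 461 CPM. The 14 microglial markers summed to 5064 to 5783 CPM in mono-culture and 6815 to 8270 CPM in tri-culture. Neuronal markers (3 higher and 2 lower of 6 tested) summed to 27.5 to 46.7 and 27.7 to 55.1 CPM, with SNAP25, STMN2, SLC17A6, GAD1, GAD2 and DCX at 0 in every mono-culture library and MAP2 at 14.7 ± 3.47 and 12.7 ± 4.84 CPM. Neural progenitor markers (3 higher and 2 lower of 5 tested, median log2 fold change 6.76) summed to 895 to 1151 and 563 to 672 CPM. In mono-culture 5 of the 8 were at 0, with SOX2, HES5, PROM1 and NEUROG2 among them. The mono-culture sum thus came from PAX6, NES and VIM alone. NEUROG2 was at 0 in tri-culture as well. Fibroblast markers (1 higher and none lower of 4 tested) summed to 15.5 to 34.6 and 18.3 to 418 CPM, with COL3A1 at 1.44 ± 1.71 and 131 ± 107 CPM (adjusted p = 0.0505). Pluripotency genes (1 tested, called higher) summed to 1.66 to 3.10 and 4.48 to 6.45 CPM, and red cell and platelet genes, none of them abundant enough to test, to at most 0.24 and 0.398 CPM. Their part in the changes of the 36 genes was not tested.

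**Figure D1:**
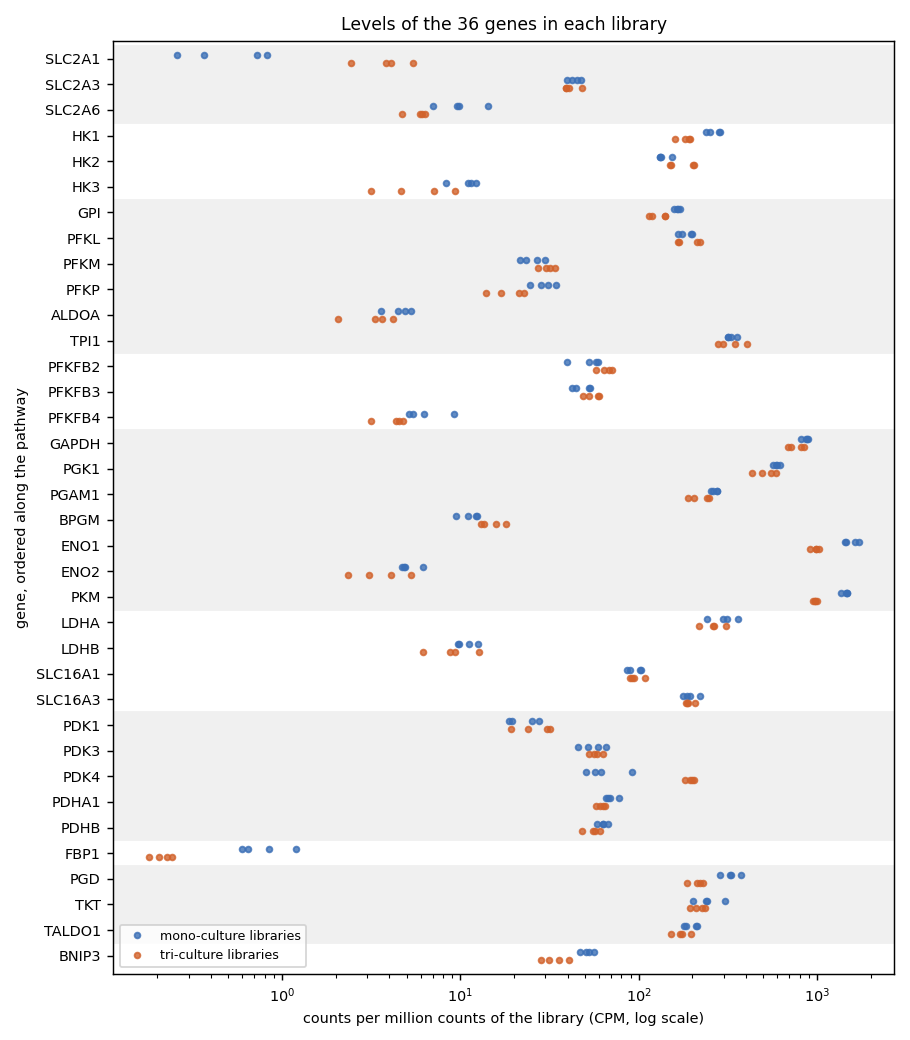
CPM of each of the 36 genes in every library on a logarithmic axis, 1 point per library (4 mono-culture, 4 tri-culture), with genes ordered along the pathway and roles separated by shading. The levels span from FBP1, at 0.179 to 1.19 CPM, to ENO1, at 913 to 1716 CPM, and the groups separate completely for 15 genes.

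The first step is the entry of glucose through facilitative carriers of the SLC2A family. SLC2A3 (GLUT3, the high-affinity carrier also used by neurons) was the most abundant of the 3 carriers by TPM, at 21.0 ± 2.13 TPM in mono-culture and 20.7 ± 1.66 TPM in tri-culture (SD, n = 4 each). Its CPM was 45.2, 42.3, 47.5 and 39.9 in mono-culture libraries 1 to 4 and 48.3, 40.7, 38.9 and 39.0 in tri-culture libraries 1 to 4. The groups overlapped, and the change was not called (log2 fold change -0.16 with SE 0.13, adjusted p = 0.408). SLC2A14, a close copy that could share its reads, held 116 counts over all libraries. How reads matching both genes were counted is not known, so this does not show that SLC2A3 lost none.

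SLC2A1 (ENSG00000117394, chr1:42925375-42959176 in GRCh38, also GLUT1), the carrier of the blood-brain barrier and of many proliferating cells, was at 0.259, 0.363, 0.719 and 0.822 CPM in mono-culture libraries 1 to 4 and at 4.08, 2.45, 5.43 and 3.81 CPM in tri-culture. Every tri-culture library was above every mono-culture library, and the gene rose 6.88-fold (log2 fold change 2.78 with SE 0.39, adjusted p = 0.000149). The size of the change depended on the pseudocount: limma on the length-scaled values gave a log2 fold change of 1.67 with a pseudocount of 0.5 and 1.23 with 1, and the call held. It remained a minor transcript: 384 counts over all 8 libraries, and 4.88 to 10.6% of the TPM summed over the 3 carriers in tri-culture, against 0.386 to 1.66% in mono-culture. Of its exon bases 2.71% lie under an antisense gene.

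SLC2A6 (ENSG00000160326, chr9:133471095-133479137), a carrier of lysosomal membranes that is abundant in leukocytes, moved the other way. It was at 14.2, 9.85, 9.53 and 7.04 CPM in mono-culture libraries 1 to 4 and at 4.71, 6.08, 5.96 and 6.31 CPM in tri-culture. All tri-culture libraries were lower, with the highest mono-culture value in batch 1, and the fall was 1.90-fold (log2 fold change -0.93 with SE 0.22, adjusted p = 0.0065). Its share of carrier TPM went from 26.4 to 39.4% in mono-culture to 15.6 to 23.2% in tri-culture, while the summed TPM of the 3 carriers overlapped between groups (27.3 to 36.5 and 26.9 to 30.0 TPM).

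Hexokinases trap glucose in the cell as glucose 6-phosphate. HK1 (ENSG00000156515, chr10:69269984-69401884), the isozyme bound to mitochondria in brain and most tissues, was at 239, 252, 283 and 286 CPM in mono-culture libraries 1 to 4 and at 181, 160.5, 191 and 193 CPM in tri-culture. The groups did not overlap, and HK1 fell 1.56-fold (log2 fold change -0.64 with SE 0.10, adjusted p = 0.00041). HK2, the inducible isozyme of muscle and of activated macrophages, was at 131, 132, 133 and 153 CPM in mono-culture and at 153, 149, 202 and 205 CPM in tri-culture. It was higher in tri-culture in each of the 4 batches, with the highest values in tri-culture libraries 3 and 4, but the ranges overlapped and the change was not called (log2 fold change 0.26 with SE 0.11, adjusted p = 0.112). It was called higher with upper-quartile scaling (adjusted p = 0.0469) and with the tri-culture libraries of batches 3 and 4 alone (adjusted p = 0.0114).

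HK3 (ENSG00000160883, chr5:176880869-176899332), the myeloid isozyme, was at 8.34, 11.1, 11.5 and 12.2 CPM in mono-culture and at 3.14, 9.35, 7.07 and 4.66 CPM in tri-culture. Tri-culture library 2 reached into the mono-culture range, and the other 3 tri-culture libraries lay below it. The 1.89-fold fall passed the test (log2 fold change -0.92 with SE 0.28, adjusted p = 0.0276), but not when mono-culture library 2, 3 or 4 or tri-culture library 4 was left out (adjusted p = 0.0529 to 0.0727), nor when library totals alone set the scale (adjusted p = 0.0502) or with the tri-culture libraries of batches 1 and 2 alone (0.117). By TPM the isozymes changed places. HK1 made up 53.2 to 56.3% of hexokinase TPM in mono-culture and 38.3 to 44.3% in tri-culture, and HK2 went from 38.0 to 42.1% to 53.7 to 59.1%, with no overlap for either. The summed hexokinase TPM overlapped, at 179 to 226 in mono-culture and 163 to 220 in tri-culture.

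**Figure D2:**
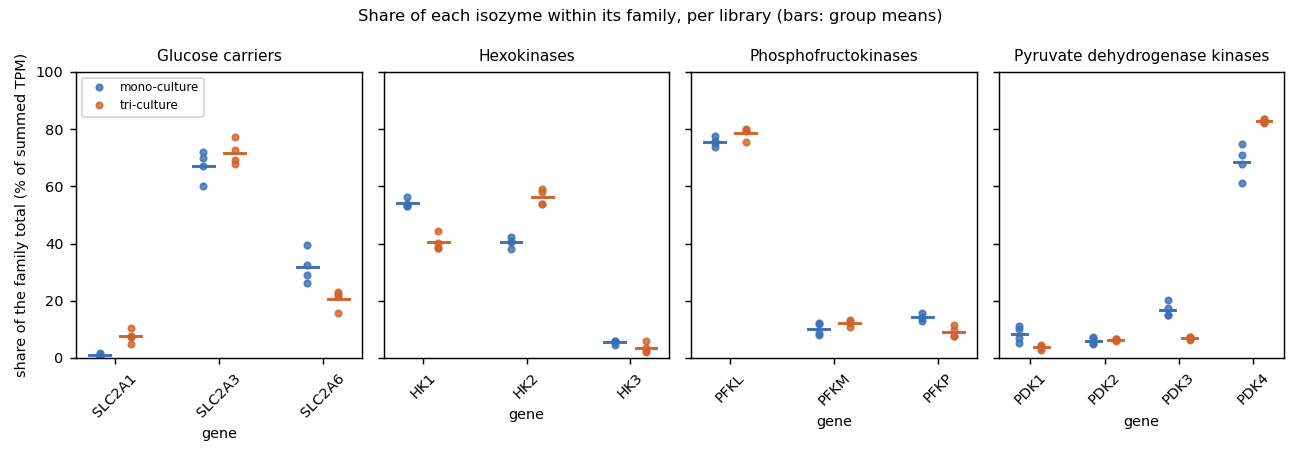
Share of each isozyme in the summed TPM of its family (percent), 1 point per library and a bar at each group mean, for glucose carriers, hexokinases, phosphofructokinases and pyruvate dehydrogenase kinases. HK1 and HK2 exchange rank between the groups, PFKL stays first in both, and PDK4 goes from 61.3 to 74.6% of its family in mono-culture to 82.3 to 83.5% in tri-culture.

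In upper glycolysis 2 of 6 genes fell and none rose (edgeR; 0 higher at an unadjusted p under 0.05 and 0 by DESeq2). GPI (ENSG00000105220, chr19:34359480-34402413), the isomerase that makes fructose 6-phosphate, was at 158, 165, 167 and 169.7 CPM in mono-culture libraries 1 to 4 and at 114, 119, 141 and 141 CPM in tri-culture. The groups did not overlap, tri-culture libraries 1 and 2 being the lowest, and the fall was 1.37-fold (log2 fold change -0.46 with SE 0.10, adjusted p = 0.00297). Of its coding bases 10.3% lie under a second gene annotated on the same strand.

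Phosphofructokinase, the committed step, has a liver, a muscle and a platelet isozyme. PFKP (ENSG00000067057, chr10:3066333-3137712), the platelet form, was at 24.5, 31.0, 28.2 and 34.2 CPM in mono-culture and at 13.9, 21.3, 22.8 and 17.0 CPM in tri-culture. All 4 tri-culture libraries were lower, and PFKP fell 1.68-fold (log2 fold change -0.75 with SE 0.16, adjusted p = 0.00403), from 13.1 to 15.5% to 7.53 to 11.4% of phosphofructokinase TPM. PFKL, the liver form, made up most of the family in every library (73.8 to 80.2% of its TPM). PFKL was at 184 ± 16.3 CPM in the mono-culture libraries and 192 ± 29.4 CPM in tri-culture and was not called (log2 fold change -0.04 with SE 0.12, adjusted p = 0.845), and the sign of its change turned when library totals or upper quartiles set the scale. PFKM, the muscle form, was at 25.4 ± 3.79 and 30.9 ± 2.83 CPM and was not called (log2 fold change 0.18 with SE 0.12, adjusted p = 0.311).

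TPI1, which interconverts the triose phosphates, was the most abundant upper glycolytic gene by TPM (430.5 ± 28.9 in mono-culture and 446 ± 60.8 in tri-culture). Its CPM was 356, 329.7, 316 and 316 in mono-culture libraries 1 to 4 and 405, 346, 297 and 279 in tri-culture. Tri-culture library 1 was the highest of all 8 and tri-culture library 4 the lowest, and the change was not called (log2 fold change -0.08 with SE 0.15, adjusted p = 0.768). ALDOA, the main aldolase of most tissues, was counted at only 4.55 ± 0.722 CPM in the mono-culture libraries and 3.31 ± 0.906 CPM in tri-culture and was not called (log2 fold change -0.56 with SE 0.24, adjusted p = 0.106). Of its coding bases 93.8% lie under a second gene annotated on the same strand, which held 156 counts itself, so the level of ALDOA is uncertain.

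PFKFB enzymes set the level of fructose 2,6-bisphosphate, the strongest activator of phosphofructokinase. PFKFB3, the isozyme whose kinase activity most outweighs its phosphatase activity, was the most abundant by TPM (27.9 ± 4.38 and 32.9 ± 3.60). It was at 44.3, 42.1, 53.4 and 52.6 CPM in mono-culture libraries 1 to 4 and at 59.5, 48.8, 59.2 and 52.8 CPM in tri-culture. The ranges overlapped and it was not called (log2 fold change 0.10 with SE 0.12, adjusted p = 0.568), nor was PFKFB2, the heart isozyme (52.3 ± 8.89 and 65.2 ± 5.85 CPM, log2 fold change 0.22 with SE 0.13, adjusted p = 0.239). PFKFB4 (ENSG00000114268, chr3:48517684-48562015), a hypoxia-inducible isozyme, was at 9.21, 5.39, 5.16 and 6.28 CPM in mono-culture and at 4.75, 3.14, 4.33 and 4.54 CPM in tri-culture. All tri-culture libraries were lower, and the 1.67-fold fall passed the test (log2 fold change -0.74 with SE 0.24, adjusted p = 0.037). It passed under only 7 of 19 alternatives: leaving out mono-culture library 1 or 4 or tri-culture library 2, 3 or 4 ended the call (adjusted p = 0.0586 to 0.133), as did scaling by library totals or upper quartiles and limma's test (0.0569 to 0.0682).

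Lower glycolysis, from glyceraldehyde 3-phosphate to pyruvate, held the most abundant members. Of its 7 genes ENO1 and PKM fell and none rose (edgeR; 0 higher at an unadjusted p under 0.05 and 0 by DESeq2). ENO1 (ENSG00000074800, chr1:8861000-8879250), the ubiquitous enolase, was at 1436, 1716, 1632 and 1458 CPM in mono-culture libraries 1 to 4 and at 1027, 991, 989 and 913 CPM in tri-culture. The lowest mono-culture library was well above the highest tri-culture library, and ENO1 fell 1.70-fold (log2 fold change -0.76 with SE 0.13, adjusted p = 0.000859), or from 843 ± 55.9 to 548 ± 22.4 TPM. PKM (ENSG00000067225, chr15:72199029-72231822), the pyruvate kinase that makes pyruvate and ATP, was at 1364, 1475, 1466 and 1446 CPM in mono-culture and at 952, 979, 993 and 976 CPM in tri-culture. No mono-culture library was below 1364 CPM and no tri-culture library above 993 CPM, and PKM fell 1.58-fold (log2 fold change -0.66 with SE 0.12, adjusted p = 0.00106). Gene counts do not separate its M1 and M2 splice forms.

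GAPDH, the dehydrogenase often used as a reference gene, was the most abundant member by TPM (907 ± 54.1 in mono-culture and 827 ± 52.4 in tri-culture). Its CPM was 817, 872, 876 and 888 in mono-culture and 845, 813, 711 and 687 in tri-culture. Tri-culture library 1 lay inside the mono-culture range and tri-culture libraries 3 and 4 were the lowest, and GAPDH was not called (log2 fold change -0.27 with SE 0.13, adjusted p = 0.172). Of its coding bases 21.5% lie under a gene on the other strand, which held 0 counts. How reads under both genes were counted is not known. PGK1, the first ATP-making kinase of the pathway, had the same order of tri-culture libraries (586, 551, 489 and 434 CPM, against 594 ± 22.6 CPM in mono-culture) and was not called (log2 fold change -0.30 with SE 0.14, adjusted p = 0.152).

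PGAM1, the mutase, did not overlap between groups, at 255, 261, 276 and 276 CPM in mono-culture libraries 1 to 4 and 248, 243, 204 and 190.0 CPM in tri-culture, but was not called (log2 fold change -0.36 with SE 0.13, adjusted p = 0.059). With the batch as a replicate block its adjusted p was 0.034, with DESeq2 it was 0.0298, and without tri-culture library 1 or 2 it was 0.0225 or 0.0404. PGAM4, a close copy, held 118 counts over all libraries, and how reads matching both genes were counted is not known. BPGM, which makes 2,3-bisphosphoglycerate, was higher in every tri-culture library (13.0 to 17.9 CPM, against 9.49 to 12.3 CPM) and was not called (log2 fold change 0.33 with SE 0.17, adjusted p = 0.167). ENO2, the neuronal enolase, gave 5.15 ± 0.669 CPM in the mono-culture libraries and 3.69 ± 1.29 CPM in tri-culture and was not called (log2 fold change -0.59 with SE 0.24, adjusted p = 0.0945); without tri-culture library 3 its log2 fold change was -0.79 (adjusted p = 0.0369). It made up under 1% of enolase TPM in every library, and the summed enolase TPM was 790 to 916 in mono-culture and 528 to 581 in tri-culture, without overlap.

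**Figure D3:**
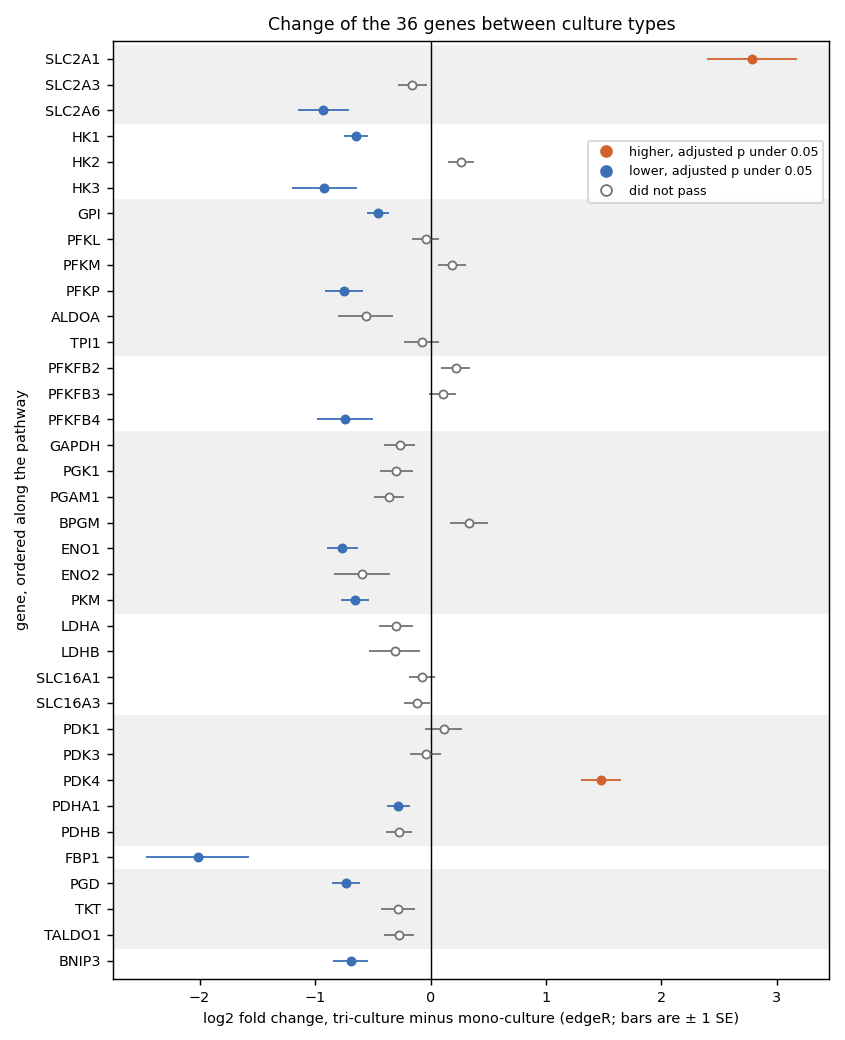
Log2 fold change of each of the 36 genes, tri-culture minus mono-culture, with bars of ± 1 SE from edgeR, and genes ordered along the pathway. Filled points passed an adjusted p under 0.05: SLC2A1 and PDK4 lie to the right of 0 and the other 12 to the left, of which FBP1 is the farthest at -2.02.

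Of the 4 lactate genes none rose or fell in edgeR's test, with 0 at an unadjusted p under 0.05 and 0 called by DESeq2 or limma; with the tri-culture libraries of batches 3 and 4 alone, LDHA and LDHB were called lower. LDHA, the lactate dehydrogenase subunit of glycolytic tissues, was the most abundant by TPM (170.4 ± 30.4 and 152 ± 18.5). It was at 242, 299, 358 and 314 CPM in mono-culture libraries 1 to 4 and at 260.1, 307, 264 and 217 CPM in tri-culture. The ranges overlapped, with mono-culture library 3 highest and tri-culture library 4 lowest, and the change was not called (log2 fold change -0.30 with SE 0.15, adjusted p = 0.164). LDHB, the heart-type subunit, was at 10.8 ± 1.29 and 9.26 ± 2.71 CPM and was not called (log2 fold change -0.31 with SE 0.22, adjusted p = 0.348); 93.5% of its coding bases lie under a second same-strand gene that held 6 counts, so its level is uncertain. SLC16A1 (MCT1), which carries lactate in and out, was at 95.0 ± 8.26 and 96.1 ± 8.68 CPM and was not called (log2 fold change -0.07 with SE 0.11, adjusted p = 0.684). SLC16A3 (MCT4), the carrier of cells that export lactate, was at 194 ± 18.2 and 192 ± 10.9 CPM and was not called (log2 fold change -0.12 with SE 0.11, adjusted p = 0.499).

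At the pyruvate dehydrogenase step PDK4 rose. PDK4 (ENSG00000004799, chr7:95583499-95596491) encodes a kinase that turns the complex off and is known to be induced in fasting and by fatty acids. It was at 91.4, 61.3, 56.7 and 50.8 CPM in mono-culture libraries 1 to 4 and at 203, 182, 198 and 193 CPM in tri-culture. Every tri-culture library was at least 182 CPM and no mono-culture library exceeded 91.4 CPM, the highest being that of batch 1, and the rise was 2.78-fold (log2 fold change 1.48 with SE 0.17, adjusted p = 3.67e-05). Over the same 4 tri-culture libraries the summed astrocyte markers were at 1451, 1519, 1545 and 1442 CPM, against 747 to 946 CPM in mono-culture. GFAP alone ranged from 61.7 to 269 CPM in tri-culture, while the mono-culture sum came almost wholly from other listed markers. Any part of other cell types in the rise of PDK4 was not tested.

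The other pyruvate dehydrogenase kinases among the 36 genes were not called. PDK1, a kinase induced by hypoxia, was at 22.7 ± 4.40 CPM in the mono-culture libraries and 26.4 ± 5.97 CPM in tri-culture (log2 fold change 0.11 with SE 0.16, adjusted p = 0.669). A gene on the other strand covers 14.3% of the coding bases of PDK1. PDK3 was at 55.5 ± 8.61 and 57.5 ± 4.54 CPM (log2 fold change -0.04 with SE 0.14, adjusted p = 0.867), and the sign of its change turned when library totals or upper quartiles set the scale. With PDK2 included, the summed TPM of the 4 kinases was 58.0 to 89.1 in mono-culture and 159 to 183 in tri-culture. PDK4 accounted for most of that sum in both groups, as the plot of isozyme shares shows, and PDK3 went from 14.9 to 20.3% to 6.25 to 7.44%.

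PDHA1 (ENSG00000131828, chrX:19343893-19361705), the catalytic alpha subunit that the kinases phosphorylate, was at 65.7, 67.6, 77.8 and 68.8 CPM in mono-culture libraries 1 to 4 and at 57.4, 64.6, 63.3 and 60.8 CPM in tri-culture. The ranges did not overlap but came close, at 64.6 and 65.7 CPM, and the 1.21-fold fall was at the threshold (log2 fold change -0.28 with SE 0.10, adjusted p = 0.0498). It passed under only 4 of 19 alternatives: leaving out any 1 library other than tri-culture library 2 ended the call (adjusted p = 0.0642 to 0.124), and with the batch as a replicate block the adjusted p was 0.0663. Of its exon bases 21.3% lie under a gene on the other strand, MAP3K15, which held 78 counts. PDHB, the beta subunit, was at 62.8 ± 3.46 and 55.3 ± 5.41 CPM and was not called (log2 fold change -0.27 with SE 0.12, adjusted p = 0.106). A gene on the other strand covers 21.0% of the coding bases of PDHB.

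FBP1 (ENSG00000165140, chr9:94603133-94640249), the fructose bisphosphatase that runs the phosphofructokinase step backwards, was the least abundant member. It was at 0.84, 1.19, 0.599 and 0.646 CPM in mono-culture libraries 1 to 4 and at 0.179, 0.204, 0.24 and 0.227 CPM in tri-culture, 98 counts in all. Each tri-culture library was below each mono-culture library, and FBP1 fell 4.05-fold (log2 fold change -2.02 with SE 0.45, adjusted p = 0.00428). With limma the log2 fold change was -1.07 with a pseudocount of 0.5 and -0.75 with 1, and the call held. Of its exon bases 16.3% lie under an antisense gene, PCAT7, which held 404 counts, and reads of the pair could not be told apart if strand was not used in counting.

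Of the 3 pentose phosphate members PGD fell. PGD (ENSG00000142657, chr1:10398592-10420144), the second NADPH-making dehydrogenase of the branch, was at 374, 326, 285 and 331 CPM in mono-culture libraries 1 to 4 and at 187, 229, 221 and 212 CPM in tri-culture. The groups did not overlap, batch 1 holding both the highest and the lowest library, and the fall was 1.66-fold (log2 fold change -0.73 with SE 0.12, adjusted p = 0.000641). TKT and TALDO1, the transketolase and transaldolase that return pentoses to glycolysis, were not called. TKT was at 246 ± 42.0 CPM in the mono-culture libraries and 216 ± 17.6 CPM in tri-culture (log2 fold change -0.28 with SE 0.15, adjusted p = 0.189), and TALDO1 at 196 ± 17.6 and 174 ± 18.2 CPM (log2 fold change -0.27 with SE 0.13, adjusted p = 0.155).

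BNIP3 (ENSG00000176171, chr10:131966455-131982013), a mitochondrial membrane protein that marks mitochondria for removal and is a known target of hypoxia-inducible factors, fell as well. It was at 53.0, 56.2, 47.1 and 50.9 CPM in mono-culture libraries 1 to 4 and at 40.8, 35.8, 28.3 and 31.5 CPM in tri-culture. All tri-culture libraries were lower, those of batches 3 and 4 the lowest, and the fall was 1.62-fold (log2 fold change -0.69 with SE 0.15, adjusted p = 0.0034). Its 39 pseudogene rows together held 2.08% as many counts as the gene.

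The size of the difference varied between batches. The median log2 ratio of tri-culture to mono-culture over the 36 genes (counts scaled to TMM-normalised library sizes, with a pseudocount of 0.5) was -0.11 in batch 1, -0.20 in batch 2, -0.31 in batch 3 and -0.36 in batch 4, against 0.03, 0.02, -0.01 and 0.03 over all tested genes. The tri-culture libraries were also compared with each other on these TMM-scaled values. Of the 36 members 16 were higher in both libraries of batches 1 and 2 than in both of batches 3 and 4. Another 6 of the 36 were lower. Over all 16249 tested genes the numbers were 5044 and 5176. This split of batches was chosen after seeing the data. The 16 were SLC2A3, TPI1, GAPDH, PGK1, PGAM1, BPGM, ENO1, PKM, LDHA, LDHB, SLC16A1, PDK3, PDHB, TKT, TALDO1 and BNIP3. In plain CPM this order did not hold for PKM, LDHA and SLC16A1. The 6 were HK2, GPI, PFKL, ENO2, PDK1 and FBP1. In mono-culture the same split of batches gave 11 and 7 of the 36 members, and 3444 and 3402 of the 16249 tested genes. With the tri-culture libraries of batches 1 and 2 alone, 10 members were called lower and 3 higher, with a median of -0.12; of all genes tested in that fit 12.3% were lower and 13.2% higher. With those of batches 3 and 4 alone, 21 were called lower and 3 higher, with a median of -0.45. Calls over all genes were also more frequent in that fit, at 17.0% lower and 16.2% higher. The 21 included SLC2A3, TPI1, GAPDH, PGK1, PGAM1, LDHA, LDHB, PDHB, TKT and TALDO1, which were not called with all 8 libraries. The 11 members called in both of these fits and under all 17 other alternatives were SLC2A1, PDK4, SLC2A6, HK1, GPI, PFKP, ENO1, PKM, FBP1, PGD and BNIP3.

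**Figure D4:**
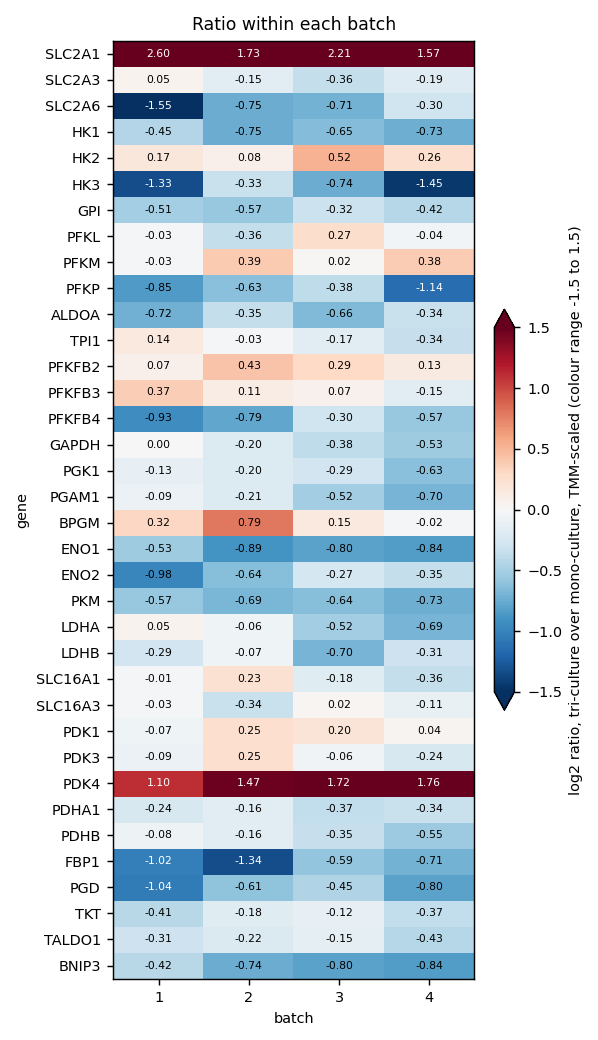
Log2 ratio of tri-culture over mono-culture levels, scaled to TMM-normalised library sizes and not plain CPM (pseudocount 0.5), for each of the 36 genes within each of the 4 batches, as a colour from -1.5 to 1.5 with the value printed. SLC2A1 and PDK4 are positive in all 4 columns, the 12 genes that fell are negative in all 4, and GAPDH, PGK1, PGAM1 and LDHA are more negative in batches 3 and 4 than in batches 1 and 2.

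Many of these genes are known targets of the hypoxia-inducible factors, which bind a core of ACGTG or GCGTG. RefSeq promoters (GRCh38.p14) were found for 33 members, all but SLC2A3, PFKFB2 and SLC16A1. Only 1 promoter per symbol was searched, here and in the background, so other starts of a gene were not read. In the 250 bases before the start, either core was present on at least 1 strand in 19 of 33 (57.6%), against 43.1% of 27305 promoters of the same length and 50.5% of 15843 promoters of protein-coding genes. ACGTG was present in 12 (36.4%, against 18.7% and 20.8%) and GCGTG in 13 (39.4%, against 31.9% and 39.2%); a palindrome CACGTG holds ACGTG on both strands. Of the 12 genes that fell 8 had a core, of the 2 that rose none, and of the 19 others 11. ACGTG was present in 3 of the 12 that fell (25.0%) and in 9 of the 19 others (47.4%). GCGTG was present in 7 of the 12 (58.3%) and in 6 of the 19 (31.6%). A match describes the letters of the window only and not binding.

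To show the range, 150 bases are given for PDK4, the member that rose with the most reads and had no core in its window, for BNIP3 and PGD, which fell and had several, and for PGK1, which had several and was not called. All are RefSeq sequence of GRCh38.p14, 5′ to 3′ on the gene's strand, upstream of the RefSeq start and outside annotated exons, though those of PGD and PGK1 lie within the span of longer GENCODE transcripts, and the capitals mark ACGTG or GCGTG, or their reverse complements CACGT and CACGC. They lie at chr7:95596517-95596666 (minus strand), chr10:131982014-131982163 (minus strand), chr1:10398894-10399043 (plus strand) and chrX:78104024-78104173 (plus strand).
PDK4: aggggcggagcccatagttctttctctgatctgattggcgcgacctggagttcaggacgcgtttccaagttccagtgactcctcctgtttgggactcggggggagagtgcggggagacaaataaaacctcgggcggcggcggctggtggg
BNIP3: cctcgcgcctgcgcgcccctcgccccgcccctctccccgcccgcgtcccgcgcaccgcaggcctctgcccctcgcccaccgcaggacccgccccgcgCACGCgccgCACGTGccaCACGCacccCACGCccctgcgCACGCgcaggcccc
PGD: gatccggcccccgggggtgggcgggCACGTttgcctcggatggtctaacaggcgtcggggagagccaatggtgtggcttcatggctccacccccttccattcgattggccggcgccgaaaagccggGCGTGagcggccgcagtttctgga
PGK1: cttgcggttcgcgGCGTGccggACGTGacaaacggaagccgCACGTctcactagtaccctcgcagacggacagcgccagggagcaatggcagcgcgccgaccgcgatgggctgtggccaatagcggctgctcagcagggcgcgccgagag

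The rest of the pathway was read from lists of genes around the 36. In 9 such lists 126 further genes were tested, each counted once, of which 14 rose and 38 fell, with a median log2 fold change of -0.15. Over all tested genes 13.9% rose and 13.0% fell, with a median of 0.02. The counts of each list below are to be read beside those shares. Among pyruvate and lactate genes (12 tested, 1 higher, 5 lower) the kinase PDK2 rose beside PDK4, from 6.35 ± 1.16 to 16.9 ± 1.01 CPM (log2 fold change 1.32, adjusted p = 0.000113). The phosphatase PDP2, which undoes the action of these kinases, fell (log2 fold change -0.67, adjusted p = 0.00219), and the summed TPM of PDP1 and PDP2 went from 20.02 to 26.7 down to 16.7 to 19.4. The lactate and pyruvate carrier SLC16A7 (MCT2) fell from 19.3 ± 7.05 to 6.33 ± 1.38 CPM (log2 fold change -1.70, adjusted p = 0.000127), and EMB, a chaperone of such carriers, from 40.9 ± 13.0 to 16.9 ± 6.68 CPM (log2 fold change -1.39, adjusted p = 0.00145).

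Among other pentose phosphate genes (9 tested, 1 higher, 2 lower) PRPS1, which turns ribose phosphate into nucleotide precursors, fell (log2 fold change -0.90, adjusted p = 0.000286), and H6PD, an NADPH-making dehydrogenase inside the endoplasmic reticulum, rose (log2 fold change 0.78, adjusted p = 0.000521). DESeq2 and limma (pseudocount 0.5) each called 3 of the 9 higher and 2 lower. In edgeR 3 were higher and 2 lower at an unadjusted p under 0.05. Of 6 tested gluconeogenic genes 4 fell beside FBP1 and none rose (edgeR; 0 higher at an unadjusted p under 0.05 and 0 by DESeq2). They included PC, the carboxylase that feeds pyruvate into oxaloacetate (log2 fold change -1.02, adjusted p = 0.000476), PCK2, the mitochondrial carboxykinase (log2 fold change -1.14, adjusted p = 3.59e-05), and SLC37A1, a phosphate-linked glucose 6-phosphate antiporter (log2 fold change -1.42, adjusted p = 0.000642). The other was G6PC1, named here after its values were seen (log2 fold change -4.11, adjusted p = 6.93e-05).

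Other glucose and hexose carriers gave 2 higher and 1 lower of 6 tested: SLC2A9, the urate carrier, fell (log2 fold change -0.67, adjusted p = 0.00155), and SLC2A11 rose (log2 fold change 0.74, adjusted p = 0.0122). Other glycolytic enzymes gave 2 lower and 0 higher of 9 tested (1 higher at an unadjusted p under 0.05 and 1 by DESeq2), with ALDOC, the brain aldolase, at 5.32 ± 0.977 CPM in the mono-culture libraries and 3.26 ± 1.01 CPM in tri-culture (log2 fold change -0.81, adjusted p = 0.0356). In glycogen metabolism (17 tested, 2 higher, 3 lower) PYGL, the phosphorylase that releases glucose from glycogen, fell from 221 ± 66.0 to 78.2 ± 9.23 CPM (log2 fold change -1.60, adjusted p = 4.41e-05) and the branching enzyme GBE1 fell (log2 fold change -0.79, adjusted p = 0.000249). PGM1, which links glycogen to glycolysis, rose (log2 fold change 1.02, adjusted p = 0.000821), as did PPP1R3B, a subunit that directs a phosphatase to glycogen (log2 fold change 0.73, adjusted p = 0.00467). Of 29 genes of the TCA cycle and its shuttles 12 fell and none rose in edgeR's test (1 higher at an unadjusted p under 0.05 and 1 by DESeq2), with a median of -0.24. Those that fell included the malic enzymes ME3 (log2 fold change -4.76, adjusted p = 8.68e-06) and ME1 (log2 fold change -1.67, adjusted p = 2.72e-05). The citrate carrier SLC25A1 (log2 fold change -1.10, adjusted p = 0.00057) and OGDH, a subunit of the oxoglutarate dehydrogenase complex (log2 fold change -0.60, adjusted p = 0.00134), fell too.

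Regulators of the pathway gave 3 higher and 4 lower of 18 tested. HIF1A, the hypoxia-inducible factor subunit that drives many glycolytic genes, fell from 252 ± 28.5 to 171 ± 11.96 CPM (log2 fold change -0.65, adjusted p = 0.00122), and its relative EPAS1 fell from 123 ± 24.6 to 23.8 ± 2.60 CPM (log2 fold change -2.47, adjusted p = 2.43e-07). MYC, another activator of glycolytic genes, fell (log2 fold change -0.62, adjusted p = 0.00219). TXNIP, which is induced by glucose and restrains its uptake, rose from 418 ± 183 to 2116 ± 727 CPM (log2 fold change 2.25, adjusted p = 0.000132). Of 20 tested hypoxia-responsive genes outside the 36, 5 rose and 5 fell: CXCR4 (log2 fold change 3.40, adjusted p = 1.84e-07) and NDRG1 (log2 fold change 1.35, adjusted p = 0.00152) rose, and STC2 (log2 fold change -4.24, adjusted p = 9.73e-07) and ADM (log2 fold change -2.16, adjusted p = 2.72e-05) fell. Calls in that list thus went both ways.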

How the data were processed

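RNA-seq of GFP-sorted microglia from H1 cells was read from the authors' deposited tables: whole-number counts per gene, and a second table used here as a length-scaled signal per gene. Reads were aligned with HISAT2 2.1.0 to GRCh38 and counted with featureCounts 2.12.3, per the submitters' processing notes; for the annotation release, strand setting and multi-overlap rule, nothing was given in the sources used here. The deposited signal divided by the count per gene was constant between libraries, up to 1 factor per library, to within 0.0146% over 3241 genes with at least 1000 counts. Its library totals were 0.866 to 1.14 times the fixed total of TPM, so each library was rescaled to that total. Positions and overlaps came from GENCODE 29, symbols from a separate list of gene names, and promoters from RefSeq.

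Counts were tested with edgeR 4.0.16 (R 4.3.3): filterByExpr (minimum count 10, minimum total 15), TMM, robust quasi-likelihood fit on the group, Benjamini-Hochberg adjustment over 16249 genes, checked on simulated data. The common biological coefficient of variation was 0.206, and the SE is the absolute log2 fold change over the square root of F. Alternatives used other scalings, no filter, DESeq2 1.42.0, limma 3.58.1 with pseudocounts of 0.1, 0.5 and 1 on the length-scaled values, the replicate block, each library left out, and, chosen after seeing the data, the tri-culture libraries of batches 1 and 2 or of 3 and 4 alone. The labels give the batch, so replicate numbers pair them. Within batches 1 to 4 the paired libraries' departures from their group means correlated at 0.185, 0.127, 0.264 and 0.0796 across genes, while libraries of different batches correlated at -0.369 to 0.36, so the pairing rests on the labels' batch numbers. Chi-square per degree of freedom between libraries of a group was 9.21 to 65.1, so none was a repeat.

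The 36 genes and all lists were chosen with earlier results of these data known. Every member is named; values of all libraries are given for called members and for the most abundant by TPM of each role. From each other list the called genes with a mean of at least 5 CPM in a group are named, at most the 4 with the smallest adjusted p, apart from an item that is not reported here. Isozyme shares and medians have no test. P-values measure the spread between 4 batches of 1 line.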

Additional observations from a re-analysis of the deposited data

Results flagged for a closer look

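In 2 of 72 sets (36 genes in 2 groups of 4 libraries) 1 library stood apart from the other 3 by Dixon's criterion at the 95% level, which chance gives in about 1 of 20 sets. HK2 was at 153.3 CPM in mono-culture library 4, against 131 to 133 CPM in the others. ENO2 was at 6.14 CPM in mono-culture library 3, against 4.72 to 4.91 CPM in the others.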

How the results depend on the processing

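Over 19 alternatives (17 planned, 2 added), 11 of the 14 called members kept their call and direction in every one; HK3 kept it in 13, PFKFB4 in 7 and PDHA1 in 4, always lower. Of 684 member values 615 kept direction and side of the threshold, 33 lost a call, 19 gained one and 17 changed sign, all of the last in uncalled members. The number of members lower was 9 to 13 and of members higher 2 to 3, except that with tri-culture batches 3 and 4 only 21 were lower. The members' median was -0.12 with tri-culture batches 1 and 2 only and -0.45 with batches 3 and 4 only; the cause was not tested. With the replicate block 12 members were lower and 2 higher; PGAM1 gained a call (adjusted p = 0.034), PDHA1 lost its call (0.0663), and the block changed no other member's call.

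Sign changes: with library size only, PFKL 0.0641, TPI1 0.0118, SLC16A1 0.0179 and PDK3 0.0517; with upper quartile factors, PFKL 0.0399, SLC16A1 0.0017 and PDK3 0.0342; with tri-culture batches 1 and 2 only, TPI1 0.159, SLC16A1 0.0488, PDK1 -0.10 and PDK3 0.098; with batches 3 and 4 only, PFKL 0.0674; leaving out 1 library, PFKL -0.10 to 0.008, TPI1 -0.22 to 0.0203 and PDK3 -0.13 to 0.0598 (log2 fold changes). The cause was not tested. Few counts limit SLC2A1 (384 in all), FBP1 (98) and ALDOA (734).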
